A study of Mus musculus with 20 samples.

Results

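The MYC, MAX and MXD network is described here from RNA-seq values of 20 mouse libraries. Its 10 genes, *Myc*, *Mycn*, *Mycl*, *Max*, *Mxd1*, *Mxd3*, *Mxd4*, *Mxi1*, *Mnt* and *Mga*, were chosen by symbol, with earlier results of these data known. All 10 were found among the 25869 genes of the deposited table. MYC, N-MYC and L-MYC, the proteins of *Myc*, *Mycn* and *Mycl*, are transcription factors that bind the E-box sequence CACGTG only as dimers with MAX, and they raise genes of ribosome production, nucleotide synthesis and growth. The MXD proteins, MXI1 and MNT compete for MAX and for the same E-boxes and recruit the SIN3 corepressor, while MGA pairs with MAX inside a Polycomb complex called PRC1.6. In B cells the network is best known through *Myc*, whose translocation to an immunoglobulin locus is a founding event of Burkitt lymphoma and whose joint deregulation with *BCL2* marks double-hit lymphoma.

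The study uses a mouse strain in which dCas9a-SAM, a nuclease-dead Cas9 joined to VP64 and co-expressed with MS2-p65-HSF1, activates genes that an sgRNA points to. The cassette sits at the *Rosa26* locus under the CAG promoter on a C57BL/6 background. Mouse embryonic fibroblasts (MEFs) from E14 embryos gave 2 WT libraries, 2 dCas9a-SAM KI/+ libraries without an sgRNA, 2 with a non-targeting sgRNA (sgNT) and 4 with *Bcl-2* targeted (sgBcl-2). The last 4 are 2 libraries from each of 2 MEF lines, and the dCas9a-SAM, sgNT and sgBcl-2 groups all use these 2 lines. The lymphomas were Eµ-Myc/dCas9a-SAM KI/+/sgBcl-2. In Eµ-Myc mice the immunoglobulin heavy chain enhancer drives a *Myc* transgene in B-lineage cells, and E14.5 foetal liver stem and progenitor cells that also carried a *Bcl-2* sgRNA were transplanted into irradiated C57BL/6-Ly5.1 mice, whose own cells can be part of a tumour sample. There were 4 IgM-positive and 2 IgM-negative cell lines, each from the tumour of 1 mouse, and 2 IgM-positive primary tumours from the mice of IgM-positive lines 1 and 2. A pair of preB-ALL libraries of genotype BCR-ABL1 (p190T/+), one named for CreER-LSL-Erg and the other for Rag-Cre-Erg, are not labelled with Eµ-Myc or dCas9a-SAM.

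Values are given as CPM, a gene's reads scaled to a common library total, and, for comparisons between genes, as CPM per kb of exon. Depth was between 12474885 and 26678417 reads, and the preB-ALL libraries were the shallowest. Targeted *Bcl2*, the anti-apoptotic gene, was at 46.8 to 71.8 CPM in sgBcl-2 MEFs against 13.4 and 13.7 in sgNT MEFs. The 8 B cell markers summed to at least 1446 CPM in every lymphoma and preB-ALL library and to at most 25.2 CPM in every MEF library. The 12 fibroblast markers, which should be scarce in B cells, summed to 2517 and 5859 CPM in preB-ALL against 5.84 to 88.4 CPM in the 6 lymphoma lines. T cell markers summed to 43.6 and 206 CPM in preB-ALL and to 23.8 CPM or less in the lines. Their median was 0.160 CPM or less in both preB-ALL libraries, so that a part of the list carried the sum. The preB-ALL libraries came from another RNA kit and carry a flow-cell name that the other labels lack. A batch therefore cannot be told apart from a kind of tumour, and the 15 mitochondrial genes were at 0 in both. WT MEF library 2 stood apart from WT MEF library 1, with 8 myeloid markers at 233 CPM where the other 9 MEF libraries were between 8.56 and 14.1 CPM. The 2 tumour libraries have contradictory mouse numbers in their labels, and they were not paired with lines in the main test. In bulk RNA, fewer cells of a type and less RNA per cell cannot be told apart.

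RefSeq promoter windows (GRCm38.p6, 250 bases before to 50 after a transcript start) were at hand for 9 of the 10 members, in 11 windows. The canonical E-box CACGTG, which reads the same on both strands, was found in the windows of 3 of these members, *Max*, *Mnt* and *Mxd4*. Over all 32851 windows of the same length, 7.15% hold it. *Mlx*, the MAX-like partner of the related Mondo proteins, has one as well, and so does 1 of 2 windows of *Mlxipl*, which encodes the Mondo protein ChREBP. The 30 bases around each E-box are shown because it is the site for which the members compete, with the E-box in capitals and the gene's own strand read 5′ to 3′.
Max: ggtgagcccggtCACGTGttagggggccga
Mnt: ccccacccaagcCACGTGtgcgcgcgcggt
Mxd4: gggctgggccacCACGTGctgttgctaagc
Mlx: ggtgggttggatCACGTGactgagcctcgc
Mlxipl: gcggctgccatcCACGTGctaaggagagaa

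The *Max* stretch is chr12:76962234-76962263 on the minus strand, and its E-box starts at position -3, so that it spans the transcript start. That of *Mnt* is chr11:74830789-74830818 on the plus strand, with the E-box from position -123. *Mxd4* has it at chr5:34187912-34187941 on the minus strand, from position -219, and *Mlx* at chr11:101087238-101087267 on the plus strand, from position -40. The *Mlxipl* stretch is chr5:135089780-135089809 on the plus strand, with the E-box from position -98. The 3 windows of *Mxi1* and those of *Mycn*, *Mycl*, *Mxd1*, *Mxd3* and *Mga* do not hold these letters, which says nothing of binding elsewhere. No binding was measured in this series.

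*Myc* (Entrez 17869, chr15:61985341-61990361) was at 1801, 1553, 1721 and 1148 CPM in IgM-positive lines 1 to 4 and at 1711 and 2602 CPM in IgM-negative lines 1 and 2. Primary tumours had 1214 and 1230 CPM, preB-ALL had 473 and 222 CPM, and the 10 MEF libraries lay between 50.2 and 139 CPM with a median of 61.2. Every library with the transgene was above both preB-ALL libraries, and both of these were above every MEF library. Between the lines and preB-ALL 53.4% of genes had non-overlapping groups, and such a share was not counted for tumours or MEFs against preB-ALL. Reads of the transgene and of the endogenous gene both map to *Myc* and cannot be separated in gene-level values. *Pvt1*, the non-coding neighbour of *Myc*, did not follow it, with 10.8 to 21.4 CPM in the lines, 16.1 and 19.0 in tumours, 28.9 and 33.0 in preB-ALL and 16.3 to 39.1 in MEFs.

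The other family members were low where *Myc* was highest. *Mycn* (Entrez 18109, chr12:12936093-12941836) had 9 reads in all over the 6 lines, 7 of them in IgM-positive line 1, and 3 lines had 0. The 146596936 reads of the 6 lines put the level of 3 reads at 0.0205 CPM, counting error only. In preB-ALL, *Mycn* was at 3.81 and 20.4 CPM, and in MEFs between 0.497 and 2.24 CPM. *Mycl* (Entrez 16918, chr4:122995588-123002490) was between 4.50 and 9.21 CPM in the 10 MEF libraries, 0.379 CPM or less in the lines, and 0.401 and 0.721 CPM in preB-ALL. Per kb, *Myc* made up 99.98% or more of the family's transcripts in every library with the transgene, 99.3% and 92.4% in preB-ALL and 87.8% to 95.8% in MEFs.

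*Max* (Entrez 17187, chr12:76937269-76962323), the obligate partner, had a narrow range within each kind of cell. MEF libraries lay between 82.5 and 104 CPM, the 6 lines between 151 and 209 CPM, tumours at 123 and 164 CPM and preB-ALL at 175 and 155 CPM. All 10 B-lineage libraries were above all MEF libraries, and between the lines and sgBcl-2 MEFs 75.3% of genes had such non-overlapping groups. The MYC family outnumbered *Max* per kb by 5.52 to 9.98 times in the lines, while in MEFs the ratio was between 0.475 and 1.33.

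Among the antagonists, *Mxd4* (Entrez 17122, chr5:34176580-34187710) and *Mxd3* (Entrez 17121, chr13:55325170-55329900), linked to differentiation and to S phase respectively, varied most among the lines. *Mxd4* was at 62.7, 75.3, 20.2 and 32.6 CPM in IgM-positive lines 1 to 4 and at 16.8 and 19.6 CPM in the IgM-negative lines. Both lines with the highest *Mxd4* are those of the tumour mice, whose tumours had 48.0 and 48.7 CPM. *Mxd3* was at 2.68, 15.1, 6.33 and 11.3 CPM in the IgM-positive and 4.49 and 2.50 CPM in the IgM-negative lines, at 27.6 and 12.4 CPM in tumours and at 23.0 and 27.2 CPM in preB-ALL. In MEFs, *Mxd3* lay between 0.722 CPM in WT library 2 and 7.41 CPM in a dCas9a-SAM library.

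*Mxd1* (Entrez 17119, chr6:86647044-86669234), the founding MXD gene, was low throughout, with 4.14 to 14.8 CPM in the lines, 9.71 to 17.7 in MEFs, 11.7 and 14.6 in tumours and 12.9 and 25.9 in preB-ALL. *Mxi1* (Entrez 17859, chr19:53310128-53373293) separated the MEF groups. It was at 25.7 and 30.4 CPM in dCas9a-SAM MEFs, 55.0 and 62.6 in sgNT MEFs, 90.8, 75.6, 102 and 109 in sgBcl-2 MEFs, and 41.9 and 79.3 in WT MEFs. The dCas9a-SAM, sgNT and sgBcl-2 groups did not overlap one another (as for 73% of genes between sgNT and dCas9a-SAM and 44% between sgBcl-2 and sgNT), while the WT libraries spanned the sgNT range. The lines had 71.0 to 142 CPM, tumours 71.5 and 71.0, and preB-ALL 65.7 and 62.5.

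*Mnt* (Entrez 17428, chr11:74830806-74845725) is the antagonist present in most tissues. It was between 54.6 and 71.4 CPM in the lines, at 56.2 and 64.1 CPM in tumours, at 75.1 and 75.6 CPM in preB-ALL and between 37.9 and 66.9 CPM in MEFs. *Mga* (Entrez 29808, chr2:119872503-119970129), which encodes the scaffold of PRC1.6, was at 170, 183, 172 and 165 CPM in the IgM-positive lines and at 104 and 115 CPM in the IgM-negative lines, with tumours at 129 and 135 CPM and preB-ALL at 125 and 107 CPM. MEF libraries lay between 75.8 and 93.3 CPM, except WT library 2 at 160 CPM.

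**Figure D1:**
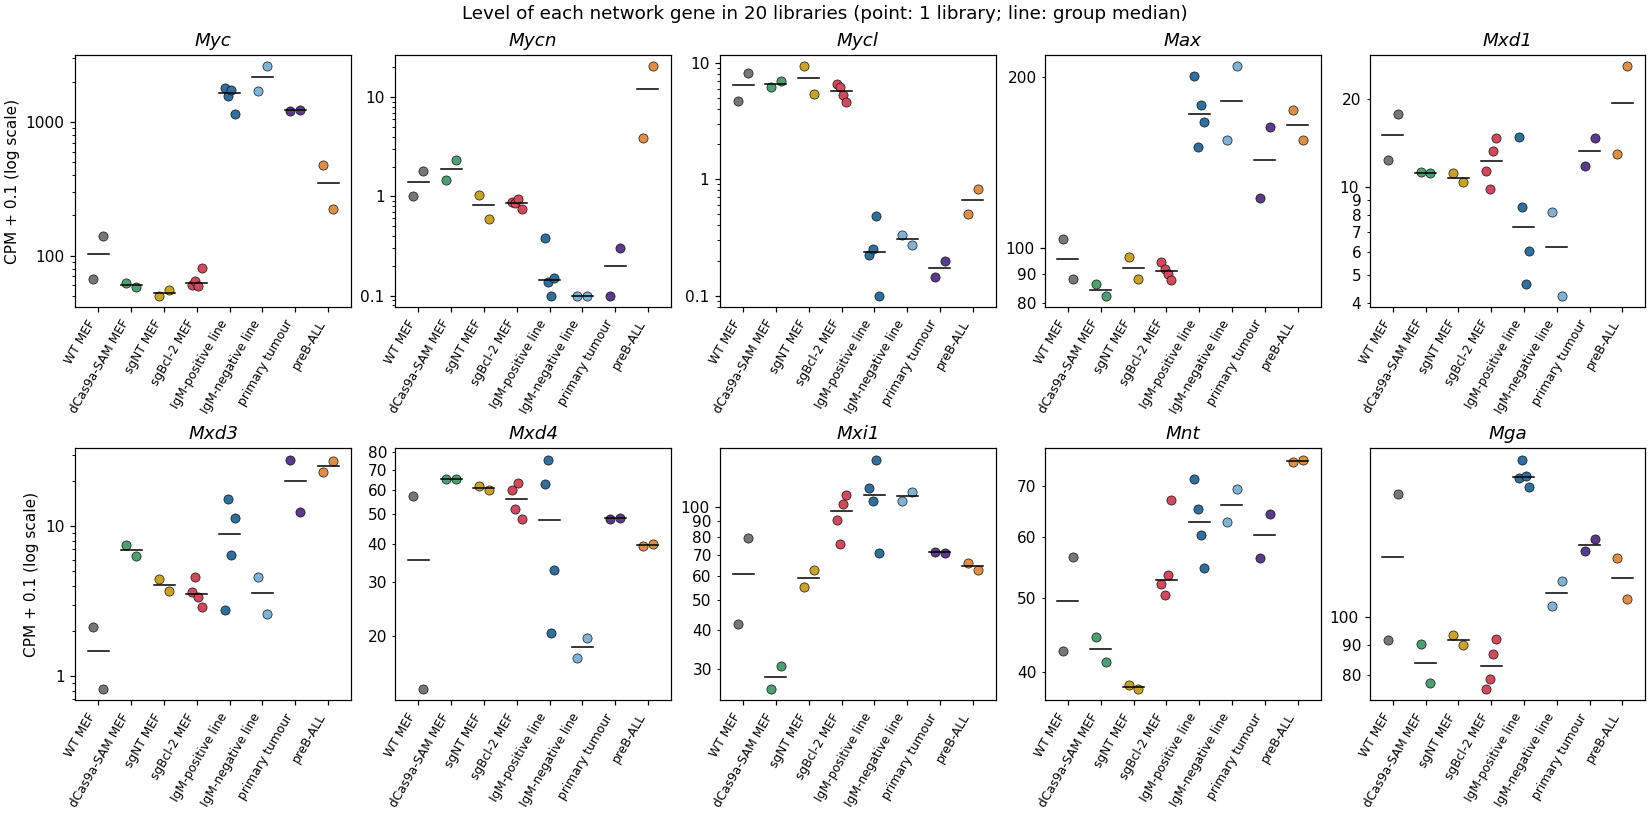
CPM + 0.1 of each of the 10 genes on a log axis, with 1 point per library and a line at each group's median. *Myc* is at 1148 CPM or more in the 8 libraries with the transgene, and *Mycl* is at 4.50 CPM or more in MEFs only.

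The summed MYC family was set against the 6 antagonists, per kb, as a description with no test. The ratio was 11.1, 8.41, 12.2 and 8.93 in IgM-positive lines 1 to 4, 15.1 and 22.2 in the IgM-negative lines, and 7.30 and 8.48 in tumours. In preB-ALL it was 2.98 and 1.40. MEF libraries were between 0.474 and 0.701, except WT library 2 at 1.37. The sgBcl-2 libraries (0.474 to 0.623) spanned both the sgNT (0.521 and 0.542) and the dCas9a-SAM libraries (0.619 and 0.617). The mean log2 ratio of the 6 lines was 3.62 and became 2.20 on CPM without the length correction, which gives more weight to the long transcripts of *Mga* and *Mxi1*. The antagonist sum itself was 46.3 to 75.5 CPM per kb in the lines and 41.0 to 55.2 in MEFs.

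**Figure D2:**
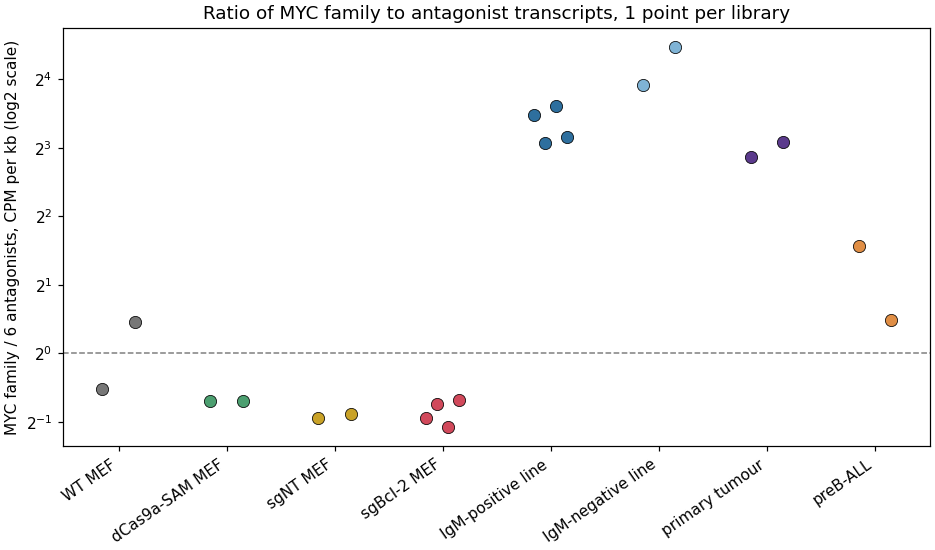
Summed CPM per kb of *Myc*, *Mycn* and *Mycl* divided by that of the 6 antagonists, on a log2 axis, with 1 point per library and a dashed line at 1. Lines and tumours lie between 7.30 and 22.2, preB-ALL at 2.98 and 1.40, and MEFs at or below 1.37.

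The make-up of the antagonist pool is given as the percent of its summed CPM per kb. *Mxd4* was the largest part in both dCas9a-SAM and both sgNT libraries (34.8% to 39.1%), in WT library 1 (35.9%), in sgBcl-2 libraries 1 to 3 (28.6% to 30.4%) and in IgM-positive line 2 (25.7%). In WT library 2 it was 7.86%. *Mxi1* was the largest part in sgBcl-2 library 4 (29.7%), in IgM-positive lines 1 and 3 (26.0% and 36.9%) and in both IgM-negative lines (34.0% and 35%). *Mxd3* took 26.5% and 29.3% in preB-ALL and 30.7% and 15.7% in tumours, against 3.04% to 16.2% in the lines.

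**Figure D3:**
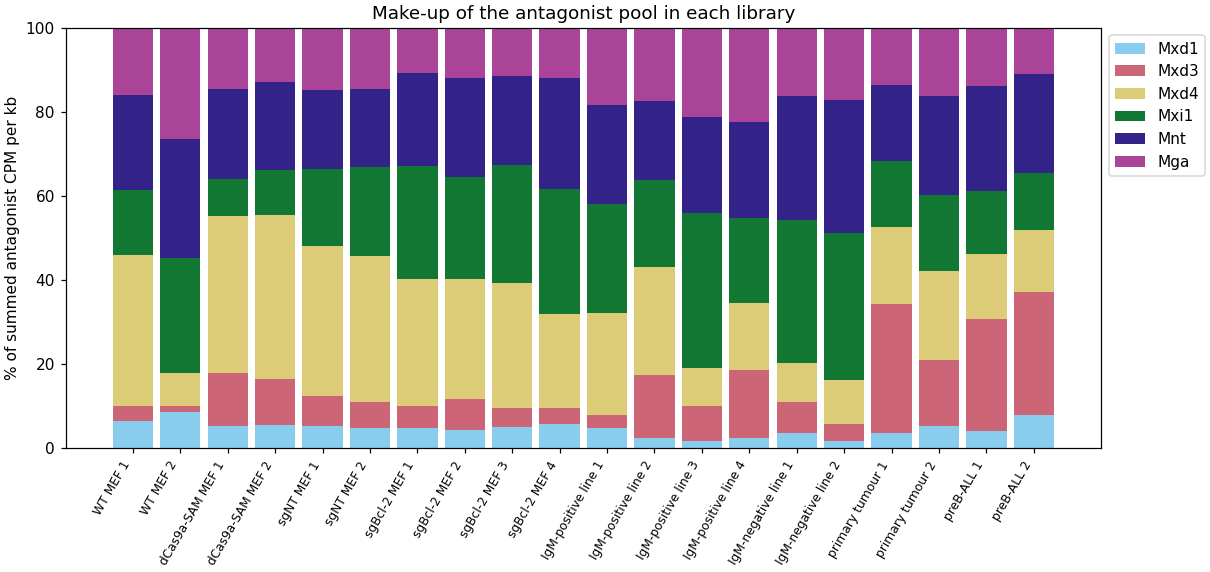
Percent of the summed antagonist CPM per kb that each of the 6 antagonists contributes, with 1 stacked bar per library and every bar reaching 100%. *Mxd4* is the widest part in 8 of 10 MEF libraries, and *Mxd3* is the widest in tumour library 1 (30.7%) and both preB-ALL libraries (26.5% and 29.3%).

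Activation of *Bcl-2* in MEFs was compared with sgNT, 4 libraries against 2, to ask what the targeting sgRNA changed in the network. *Mxi1* and *Mnt* were higher, and the other 8 members did not pass the test. On the log2 scale *Mxi1* rose by 0.76 (SE 0.15, limma with Benjamini-Hochberg adjusted p = 0.0175), with all 4 libraries above both sgNT libraries. *Mnt* rose by 0.62 (SE 0.12, limma adjusted p = 0.0193), again in 4 of 4. These 4 are 2 libraries from each of 2 MEF lines, which the main fit took as separate samples. Of all 14676 genes tested, 10.8% were called, 970 higher (6.61%) and 622 lower, and the 2 groups did not overlap for 44%. Without a scaling factor 710 genes were called higher and 1137 lower. *Myc* was above sgNT in all 4 libraries, with a difference of 0.41 (SE 0.14) that was not called by limma (adjusted p = 0.0943) but was by DESeq2 (adjusted p = 0.0370). With the reads of each MEF line summed and the line as a replicate block, limma called *Myc* too (adjusted p = 0.00532). *Pvt1* fell by 0.30 (SE 0.08, limma adjusted p = 0.0482), to 18.5 ± 0.919 CPM (SD, n = 4) from 24.3 ± 0.905 (n = 2) in sgNT MEFs. The calls of *Mxi1* and *Mnt* were lost when either sgNT library was left out or when all 10 MEF libraries entered the fit, and that of *Pvt1* was lost in the latter too.

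Other genes of the pathway were counted between the same groups, beside the 10.8% called among all genes. Of 13 genes that control MYC protein stability, 3 were higher and 0 lower, namely *Usp28*, a deubiquitinase (0.66, SE 0.10), *Gsk3b*, a kinase that marks MYC for decay (0.26, SE 0.06), and *Ppp2r5a*, a PP2A subunit (0.30, SE 0.08). Both called genes of the 9 measured in the SIN3 corepressor, *Sap30* (0.88, SE 0.19) and *Sin3a* (0.31, SE 0.08), were higher. Of 25 genes that MYC is known to induce, 1 was called, *Ybx3* at 0.46 (SE 0.08), and the list's median was 0.08 against -0.01 for all genes. Of 12 that it is known to repress, *Ndrg1* (1.56, SE 0.27), which also responds to low oxygen, and *Cdkn1b* (0.42, SE 0.11), a cyclin-dependent kinase inhibitor, were higher. None of the 14 MYC cofactors, the 9 PRC1.6 genes or the 2 Mondo genes tested was called by limma. With all 10 MEF libraries in the fit 0 genes of these lists were called, beside 0.422% of genes.

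The non-targeting sgRNA was compared with no sgRNA in the same 2 MEF lines, as a control for transduction. *Mxi1* rose by 1.05 (SE 0.12, limma adjusted p = 0.000399), while *Mxd3* fell by 0.79 (SE 0.17, limma adjusted p = 0.00896) and *Mycn* fell by 1.26 (SE 0.37, limma adjusted p = 0.0282). The 3 called members stand beside a background of 41.1% of 14655 genes, 20.3% higher and 20.9% lower. *Mycn* rests on 12 to 52 reads per library here and was not called by DESeq2, without the filter on low values, without sgNT library 2 or without dCas9a-SAM library 2. *Mxd3* was not called without dCas9a-SAM library 1. *Myc* was at 50.2 and 55.1 CPM against 62.6 and 58.4 CPM, a difference of -0.22 (SE 0.09, limma adjusted p = 0.0808). *Pvt1* rose by 0.46 (SE 0.10, limma adjusted p = 0.00951), from 17.5 ± 1.76 CPM (SD, n = 2) in dCas9a-SAM MEFs. With all 10 MEF libraries in the fit neither *Pvt1* nor any of the 3 members was called, and limma's adjusted p of *Mxi1* became 0.0509. This comparison and that of sgBcl-2 with sgNT share the sgNT libraries.

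Known MYC targets were counted between these groups, beside 20.3% of all genes called higher and 20.9% called lower. Of the 25 induced targets, 18 were lower with sgNT and 1 was higher, with a median of -0.43 against 0.005 for all genes. The lower ones included *Nop58* (-0.81, SE 0.07), a ribonucleoprotein of ribosome assembly, and the transferrin receptor *Tfrc* (-1.13, SE 0.10), and the higher one was *Tert* (0.56, SE 0.15), the telomerase reverse transcriptase. Of the 12 repressed targets, 6 were higher and 2 lower, led by *Gas1* (3.41, SE 0.13), a growth-arrest gene. In the same comparison 8 of 12 fibroblast markers were higher and 1 lower, and their part in the target counts was not tested. *Cip2a*, which protects MYC from PP2A (-1.17, SE 0.08), and the kinase *Aurka* (-0.76, SE 0.08) were among 5 stability genes that were lower, beside 1 that was higher. Near that background, 4 of 14 cofactors were lower, such as *Wdr5* (-0.38, SE 0.07), a chromatin adaptor of MYC, and in PRC1.6 1 of 9 was, *E2f6* (-0.43, SE 0.07). With all 10 MEF libraries in the fit 5.94% of genes were called, and the counts became 3 lower of 25 induced targets, 3 higher of 12 repressed targets, 1 lower of 13 stability genes and 0 of 14 cofactors and 9 PRC1.6 genes.

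WT MEFs were compared with sgNT and then with dCas9a-SAM MEFs to ask whether the activator changed the network. Only the second comparison has the activator without a transduced sgRNA. No member was called in either comparison by limma, edgeR or DESeq2. The background was 0% of 14560 and 0% of 14546 genes by limma, with 4.05% and 7.43% at an unadjusted p under 0.05. DESeq2 called 83 and 188 genes in the same order, and no gene of the pathway lists was called by limma in these 4-library fits. With all 10 MEF libraries in the fit, limma called 4.73% of genes for dCas9a-SAM against WT. Among them were *Mxd3*, higher, and *Pvt1*, lower, with 1 of 13 stability genes higher and 1 lower, and 1 of 12 repressed targets higher. *Mxd3* was 2.43 higher in dCas9a-SAM than in WT MEFs (SE 0.63, limma adjusted p = 0.642) and 1.63 higher in sgNT than in WT MEFs (SE 0.63, limma adjusted p = 0.800). WT library 2 had 139 CPM of *Myc* and 13.3 CPM of *Mxd4*, against 66.4 and 57.2 CPM in WT library 1. With WT library 1 left out, 6 members were called in each comparison (beside 53.4% and 55.1% of genes), and with WT library 2 left out, 0 were called against sgNT (11.2% of genes) and 3 of 10 against dCas9a-SAM (31.8% of genes, close to the members' share).

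**Figure D4:**
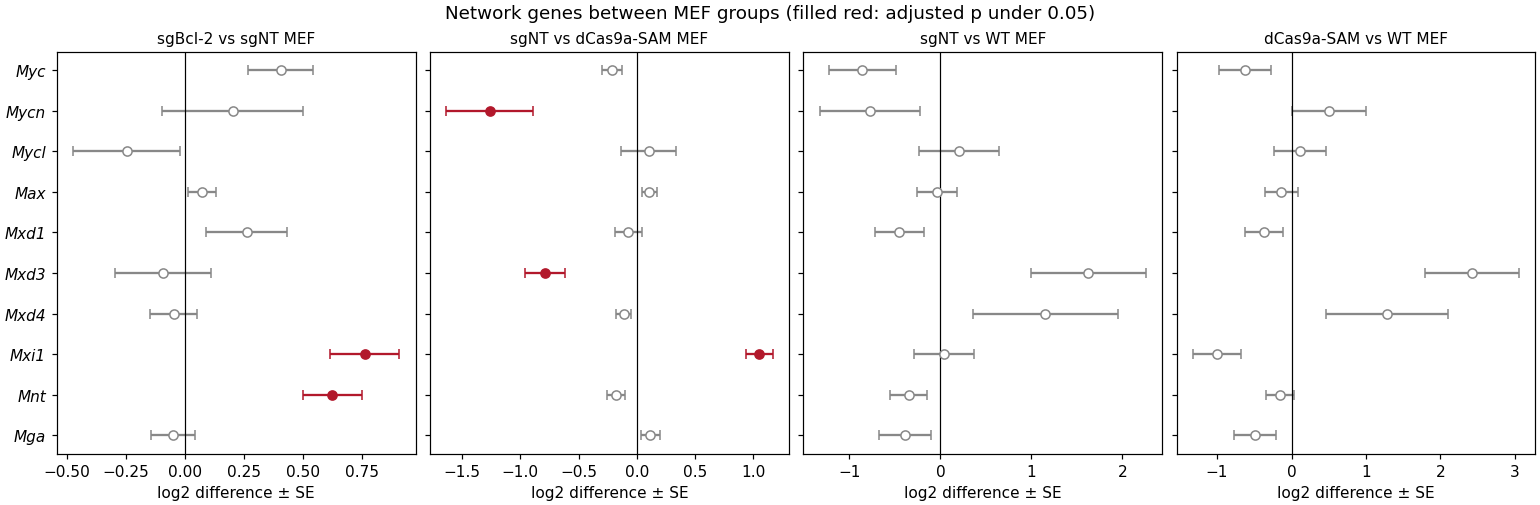
Log2 difference ± SE of each gene in the 4 comparisons between MEF groups, first named group minus second, with filled red points for an adjusted p under 0.05. *Mxi1* and *Mnt* are filled for sgBcl-2 against sgNT, and *Mycn*, *Mxd3* and *Mxi1* for sgNT against dCas9a-SAM.

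To compare the network between tumours of the B lineage, the 6 lines were set against the 2 preB-ALL libraries. Of 9 members tested, 3 were higher and 1 lower, and *Mycl* did not pass the filter on low values. *Myc* rose by 2.76 (SE 0.38, limma adjusted p = 0.000606), in 6 of 6 lines. *Mycn* fell by 5.70 (SE 0.72, limma adjusted p = 0.000408), a size that depends on the pseudocount and ranged from -7.33 to -3.02 over the alternatives. *Mxi1* rose by 1.09 (SE 0.24, limma adjusted p = 0.00658), in 6 of 6 lines, and *Mga* by 0.71 (SE 0.22, limma adjusted p = 0.0299), with overlapping groups. *Mga* was called in 13 of 20 settings, and not without preB-ALL library 1 or 2 or IgM-positive line 2, 3 or 4. The background was 43.4% of 13961 genes (20.9% higher, 22.5% lower), so that 4 of 9 is close to it, and groups did not overlap for 53.4%. *Max*, at 0.45 (SE 0.17), and *Mxd3*, at -1.76 (SE 0.68), had adjusted p-values of 0.0622 and 0.0661 by limma. Both were called without IgM-positive line 2, and *Mxd3* also by voom and without a scaling factor. The median over all genes was -0.07, and -0.42 without a scaling factor, under which *Mga* was not called. *Mnt* had fewer CPM in every line than in preB-ALL but a difference of 0.12 (SE 0.14) after scaling, and -0.24 without a scaling factor. Only *Myc* and *Mycn* were called when preB-ALL library 2 was left out (22.2% of genes) or when the primary tumours stood in for their lines (25.9% of genes).

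Of the 25 MYC-induced genes, 21 were higher in the lines and 0 lower, with a median of 1.40 against -0.07 for all genes, of which 20.9% were higher and 22.5% lower. Without a scaling factor 1691 of 13961 genes were called higher and 4400 lower, and the list counts here are those of the main fit. *Fbl*, the methyltransferase of ribosomal RNA, was at 186 ± 16.6 CPM (SD, n = 6) against 39.3 ± 13.8 (n = 2), and *Polr1b*, a subunit of RNA polymerase I, at 204 ± 39.4 against 57.1 ± 26.5. Of the 12 MYC-repressed genes, 9 were lower and 0 higher, but the leading ones, *Col1a2* and *Gas1*, are expressed by fibroblasts. *Cebpa*, a myeloid transcription factor, had 1 read over the 6 lines and 18.6 ± 6.89 CPM (n = 2) in preB-ALL. Fibroblasts expressed it as well, with 21.7 ± 3.74 CPM (n = 2) in sgNT MEFs. Of 11 fibroblast markers tested, 10 were lower in the lines, as were 4 of 5 myeloid and 4 of 8 B cell markers, and their part in the repressed count was not tested. Of the 14 MYC cofactors, 8 were higher, such as the helicase subunit *Ruvbl1* (1.94, SE 0.22), and 8 of 13 stability genes were, such as *Btrc* (1.77, SE 0.20), an F-box protein. In PRC1.6, the complex of MGA, 6 of 9 genes were higher. *Cbx3*, a heterochromatin protein, was at 205 ± 22.3 CPM against 16.8 ± 1.09, a difference of 3.96 (SE 0.12), though *Cbx3* has near-identical pseudogene copies and its counts are uncertain. *Sin3b* was the 1 called gene of the SIN3 list that was lower (-0.87, SE 0.18), while 6 were higher.

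The lines, the same 6 libraries as above, were also set against sgBcl-2 MEFs, which share the sgRNA target and the cassette but neither the cell type nor the transgene. *Myc* was 4.52 higher (SE 0.20, limma adjusted p = 4.91e-09), *Max* 0.77 (SE 0.11) and *Mga* 0.65 (SE 0.15). *Mycl* was 4.63 lower (log2 difference -4.63, SE 0.37), *Mycn* fell by 2.71 (SE 0.35; -4.23 to -0.78 over the alternatives), *Mxd4* by 0.98 (SE 0.41) and *Mxd1* by 0.96 (SE 0.33). These 7 of 10 members stand beside 81.3% of 14620 genes (36.3% higher, 45% lower), and the median of all genes was -0.27. *Mxi1* at 0.00013 (SE 0.18) and *Mnt* at 0.02 (SE 0.11) were not called. Against all 10 MEF libraries, where 84.6% of genes were called, both were called higher by limma, *Mxi1* by 0.70 (adjusted p = 0.0402) and *Mnt* by 0.32 (adjusted p = 0.0294), and both had values below 0 with RLE scaling. *Mxd4* was called in 8 of 20 settings, and *Mxd1* was not called without a scaling factor or without sgBcl-2 library 3 or 4. *Mlxip*, which encodes MondoA, a glucose-responsive relative that pairs with MLX, rose by 1.52 (SE 0.17), whereas *Mlx* was at 0.19 (SE 0.10) and *Mlxipl* was at 0.117 CPM or less in the lines. Of the induced targets 22 of 25 were higher, such as *Ppat*, the first enzyme of purine synthesis (3.49, SE 0.11), and 1 was lower, *Tert* (-2.12, SE 0.70). Of the repressed targets 11 of 12 were lower, led by *Col1a2* and *Thbs1*, both abundant in fibroblasts. Cofactors were higher for 12 of 14 and stability genes for 10 of 13 with 2 lower. SIN3 genes were higher for 6 of 9 and lower for 2, and PRC1.6 genes were higher for 4 of 9 and lower for 1.

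IgM-negative lines, 2 in number, were compared with the 4 IgM-positive lines. None of the 8 members tested was called by limma, with 0.597% of 12386 genes called and 11.3% at an unadjusted p under 0.05. edgeR called 0 members too, and no gene of the pathway lists was called by limma. *Mga* came nearest, with -0.60 (SE 0.10, limma adjusted p = 0.0850), and DESeq2 called it (adjusted p = 2.58e-10), beside 6.05% of genes. Its groups did not overlap, nor did those of *Mxd4* (-1.15, SE 0.51, limma adjusted p = 0.473), as for 22.6% of all genes. *Myc* differed by 0.52 (SE 0.25, limma adjusted p = 0.501) with overlapping groups.

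Primary tumours were compared with the lines of the same mice, 2 against 2. No member of 8 was called by limma, with 0.33% of 12719 genes called and 25.9% at an unadjusted p under 0.05. edgeR called 0 members, and no gene of the pathway lists was called by limma. Both tumours were below both lines for *Myc* (-0.50, SE 0.21, limma adjusted p = 0.227), *Mxi1* (-0.67, SE 0.16, limma adjusted p = 0.103), *Mxd4* (-0.56, and 0.18 against all 4 IgM-positive lines), *Mnt* and *Mga*, and such separation was seen for 57.1% of all genes. DESeq2 called *Mxi1* (adjusted p = 0.0262), 1 of 8 members beside 16.5% of genes. With the mouse number of the titles as a replicate block 4 members were called, *Mxd3* higher (1.47) and *Mxd4* (-0.56), *Mxi1* (-0.67) and *Mga* (-0.47) lower, beside 28.3% of genes. With the number of the descriptions 0 members and 0% were called. The leading immunoglobulin V gene was *Ighv1-47* in tumour library 1 and line 2 and *Ighv1-77* in tumour library 2 and line 1, which is the pairing of the titles. T cell markers summed to 161 and 257 CPM in the tumours against 4.72 and 23.8 CPM in the lines, and myeloid markers to 31.2 and 41.8 against 6.11 and 13.2 CPM. The median of the T cell markers was at most 0.449 CPM in the tumours, so that a part of the list carried the sum. B cell markers summed to 5409 and 5413 CPM in the tumours against 2249 and 2292 CPM in the lines. Their part in these differences was not tested.

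**Figure D5:**
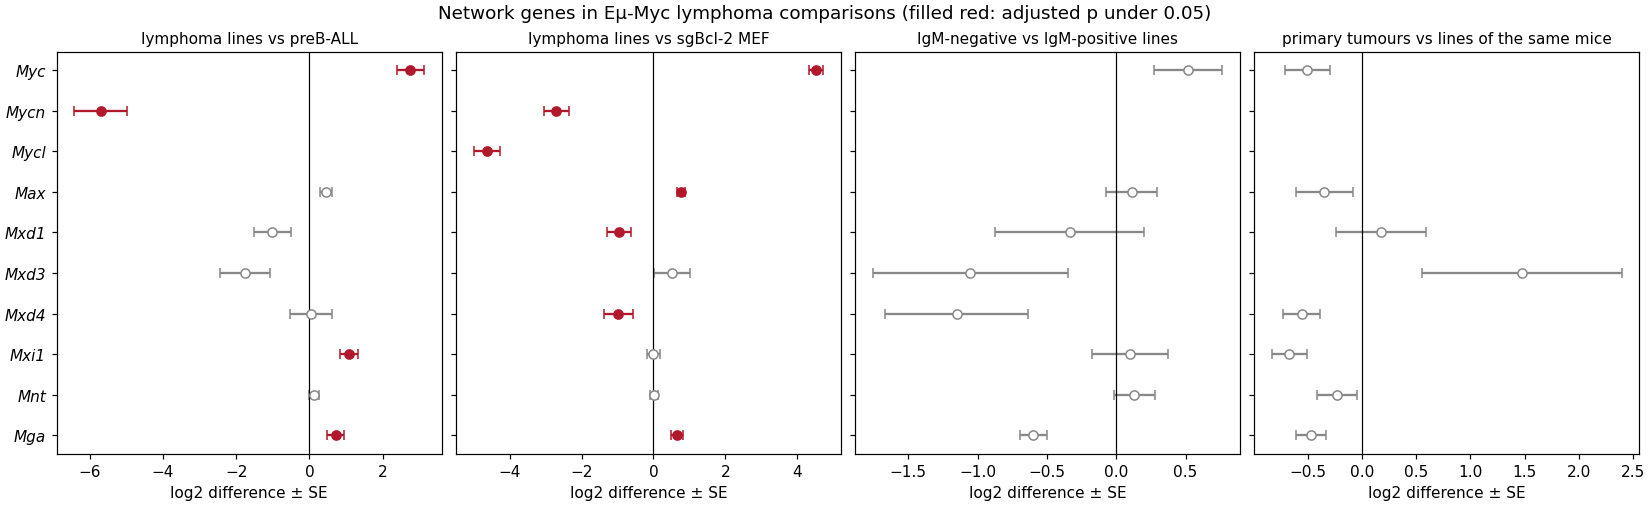
Log2 difference ± SE of each gene in the 4 lymphoma comparisons, first named group minus second, with filled red points for an adjusted p under 0.05 and no point where a gene was not tested. *Myc* is filled at 2.76 and 4.52, and no point is filled in the 2 panels on the right.

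Genes with the pattern most like that of *Myc* were ranked by Pearson's r of log2(CPM + 0.1), as a description. Over all 20 libraries and 13687 genes the first 5 were *Polr1b* (0.994), *Rrp1b* (0.990), *Nat10* (0.990), *Ifrd2* (0.990) and *Nle1* (0.989). These libraries fall into groups that differ in *Myc*, with 1148 CPM or more with the transgene, 473 and 222 in preB-ALL and at most 139 in MEFs. Over the 8 libraries with the transgene the first 5 of 11417 genes were *Ncoa3* (0.991), *Deaf1* (0.969), *Imp3* (0.960), *Man1a2* (0.943) and *Alg13* (0.934). Among the members, *Mxi1* (0.770), *Mnt* (0.732) and *Max* (0.700) were on the same side as *Myc* in these 8 libraries, and *Mxd3* (-0.827), *Mxd1* (-0.478), *Mxd4* (-0.435) and *Mga* (-0.259) were on the opposite side.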

How the data were processed

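RNA-seq was made from 20 libraries (10 MEF, 6 lymphoma lines, 2 tumours and 2 preB-ALL), grouped by their labels. The authors aligned reads with Rsubread to GRCm38, counted them per Entrez gene and deposited CPM values, with no log and no scaling factor. Whether counting used strand is not stated, so that overlapping and antisense genes are uncertain. All values were whole reads within 0.01 (100%). Symbols and coordinates came from RefSeq GRCm38.p6 (25242 of 25869 identifiers matched), and exon lengths from GENCODE.

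For each of 8 comparisons, libraries of its groups were scaled by TMM (edgeR 4.0.16), genes were kept by filterByExpr on recovered reads, and log2(CPM + 0.1) was fitted with limma 3.58.1 (trend). The Benjamini-Hochberg adjustment ran over all genes tested, and an adjusted p under 0.05 was called. Alternatives were edgeR's quasi-likelihood test and DESeq2 1.42.0 on recovered reads, voom, other scalings, pseudocounts of 0.5 and 1, no filter, each replicate left out, replicate blocks and other sets of libraries. Lines vs preB-ALL with the tumours added was chosen after seeing the data. The fits were tested on simulated data. R 4.3.3 and Python 3.11.15 were used.

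MEF line numbers in the labels pair dCas9a-SAM, sgNT and sgBcl-2 libraries. Across 15158 genes, the line 1 minus line 2 differences correlated at 0.33 between sgNT and sgBcl-2 (0.16 without X and Y genes), -0.05 between dCas9a-SAM and sgNT, and -0.13 between dCas9a-SAM and sgBcl-2. Between WT and sgBcl-2, whose genotypes differ and whose numbers mark no shared line, the value was 0.18 (0.20 without X and Y genes). Members and lists were chosen with earlier results of these data known. All 10 members, *Pvt1* and the Mondo arm were named, and from other lists up to 3 called genes per direction with the smallest adjusted p. Replicates of a group are separate samples by label, and their p-values measure the spread between these samples, which may be technical.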

Additional observations from a re-analysis of the deposited data

Results flagged for a closer look

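In 30 sets of 4 or 6 libraries, each member's highest and lowest library was compared with the rest of its set, and 1 stood apart. *Mycn* was at 0.284 CPM in IgM-positive line 1, from 7 reads, while the other 5 lines had 0 or 1 read. About 1 set in 20 would do so by chance.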

How the results depend on the processing

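The number of members called was recomputed under each alternative, 1 choice at a time except where sums and a block were combined. Leaving out 1 library gave 0 to 6 called members for sgNT against WT MEFs, 0 to 2 for sgBcl-2 against sgNT MEFs, 0 to 6 for dCas9a-SAM against WT MEFs, 2 to 3 for sgNT against dCas9a-SAM MEFs, 2 to 5 for the lines against preB-ALL and 5 to 7 for the lines against sgBcl-2 MEFs. In each of these comparisons, the share of all genes called was also largest where the most members were called. The ranges alone therefore do not set the members apart from other genes. A lone library left in a group was assumed to vary like the other group. With all 10 MEF libraries in the fit, 0 members were called for sgBcl-2 against sgNT (0.422% of genes), 1 (*Mxd3*) for dCas9a-SAM against WT (4.73%) and 0 for sgNT against dCas9a-SAM (5.94%). With both tumours standing in for the 2 lines of their mice, 2 of 9 members were called against preB-ALL, beside 25.9% of genes. DESeq2 called 1 of 8 members for IgM-negative against IgM-positive lines (6.05% of genes) and 1 of 8 for primary tumours against their lines (16.5%). For the network levels, the mean log2 ratio of family to antagonists in the lines was 3.62, 2.20 without the length correction, 3.92 without *Mga*, and 3.445 to 3.725 with 1 line left out. The cause of these changes was not tested.

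With the MEF line as a replicate block, the members called stayed at 2 for sgBcl-2 against sgNT (14.6% of genes called), 3 for sgNT against dCas9a-SAM (36.9%) and 0 for both WT comparisons, where the number is no shared line. With reads of each MEF line summed and the block, *Myc* was also called for sgBcl-2 (adjusted p = 0.00532 by limma). For the tumours, the block by title, the pairing that the leading immunoglobulin V genes match, called 4 members beside 28.3% of genes. The block by description called 0 members and 0% of genes. No difference called in the main test changed its sign in the alternatives run. Of those called only under an alternative, *Mxd4* in tumours against lines ranged from -0.65 to 0.18, *Max* in dCas9a-SAM against WT MEFs from -0.35 to 0.115, and in the lines against sgBcl-2 MEFs *Mxi1* from -0.19 to 0.70 and *Mnt* from -0.17 to 0.32. *Mycn* and *Mycl* had 10 reads or fewer in every lymphoma library, so that counting error limits their values there.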
